A study of Drosophila melanogaster with 6 samples.

Results

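Head and thorax of male Drosophila melanogaster were compared after 26 h and after 2 h in the company of rival males, as 1 pool of 40 male body parts at 26 h against 1 pool of 40 at 2 h. The males were of the Dahomey wild-type strain, an outbred laboratory population. They were raised at 100 larvae per vial on SYA medium, kept 10 to a vial after eclosion and housed singly for 5 days when 1 d old. Freezing took place at 1 time of day for all males, so the pools share clock time, and the bodies were then cut into abdomen and head plus thorax. RNA of each pool went into 2 split libraries, sequenced as single-end reads of 50 nt on separate lanes of 1 flow cell. A pool of abdomens at 2 h, with 2 split libraries of its own, is used below only for the level of a gene in abdomen. The undivided libraries of the same pools, and any males kept without rivals, are not analysed here, so exposure to rivals cannot be told apart from the passage of a day or from age.

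Genes were taken in when they reached 20 CPM (counts per 1000000 counts of the library, with library sizes scaled by the trimmed mean of M values, TMM) in the mean of the 2 split libraries of either head-thorax pool. Ribosomal RNA genes and genes of the mitochondrial genome were left out. This gave 5064 of the 16942 genes in the files, called members here, of which 4730 reached the limit in both pools, 107 at 26 h only and 227 at 2 h only. Members that reached the limit at a single time entered through the pool where they are higher, which ties their direction to the limit. Of the genes named below, TotM, NimC1, eater, cyc, Prx6c, fit, ORY, Sr-CI, CheA75a and Cubn are among those in by 2 h only. So are Hsp70Aa, Hsp70Ab, Hsp68, GstE1, Jhbp2, Act42A and Ilp2, while Mal-A7, phu and CG14742 are in by 26 h only. Just inside the limit were Wdr33 (15.92 CPM at 26 h and 20.01 CPM at 2 h), CG10026 (18.39 and 20.02 CPM) and dpr19 (18.09 and 20.02 CPM), and just outside were baf (just under 20 CPM at 26 h and 19.0 CPM at 2 h), CG13893 (16.73 and 19.99 CPM) and CG14613 (19.99 and 17.0 CPM). Each member was tested with edgeR's quasi-likelihood test over all 14694 genes with enough counts, with Benjamini-Hochberg adjustment. A member was called higher or lower at 26 h at an adjusted p under 0.05, a difference of at least 1.3-fold (0.38 on the log2 scale) and a ratio on the same side of 0 for each of the 4 ways to pair a 26 h with a 2 h library. Where a value of 0.38 or −0.38 is given as short of 1.3-fold, it lay inside the limit before rounding. Split libraries are technical, so the p-values measure only their spread and compare 2 pools of flies, not 2 conditions.

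Flies sense rivals by sound, smell, taste, touch and sight, and males that have met rivals are known to mate for longer. The head and thorax hold the brain, the eyes, the antennae and mouthparts, the flight muscle, the salivary glands and the front part of the gut, together with circulating blood cells and the fat body, which is the fly's counterpart of liver and adipose tissue. The fat body secretes storage proteins, stress peptides of the Turandot family and antimicrobial peptides into the blood, and its genes follow feeding, infection and stress. In a pool of whole body parts, fewer cells of a type and less RNA per cell cannot be told apart.

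The 26 h libraries held 31203759 and 34217543 counts and the 2 h libraries 32627878 and 22604036. The mitochondrial genome accounted for 22.0% and 21.6% of the counts at 26 h, against 17.3% and 17.9% at 2 h, and annotated ribosomal RNA genes 0.815% and 0.807%, against 2.17% and 2.18%. Split libraries lay close together: 1 member differed by 1.3-fold or more between those at 26 h and 1 between those at 2 h, and the median absolute log2 difference was 0.033 at 26 h and 0.036 at 2 h. Of all measured genes 7810 overlap another measured gene, and the counts of such genes can hold each other's reads. Adh and its neighbour Adhr, for example, had identical counts in every library. The reads of a member are called its own where overlapping genes hold so few counts that at least 90% must be its own in all 4 libraries. Its counts must also not be identical to those of another gene in every library, nor belong to the near-equal sets described below. These rules held for 3238 members. They do not remove genes that nearly share counts with only a few others, such as Prx6b and CG12896.

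Most members differed little between the pools. The median log2 ratio of 26 h over 2 h was −0.03, the 5th and 95th percentiles were −0.46 and 0.37, and 87.1% of members stayed short of 1.3-fold. At 26 h 243 members were higher (4.8%) and 412 lower (8.14%), and at 2-fold 19 were higher (0.375%) and 26 lower (0.513%). The balance went with the scaling: raw library totals gave 141 higher and 725 lower at 1.3-fold, and DESeq2 size factors 316 higher and 327 lower. Among all 14694 genes tested, which include the rarer ones, 1545 were higher (10.5%) and 1095 lower (7.45%). Thus 224 of the higher and 386 of the lower members lay between 1.3-fold and 2-fold. Of the members with reads of their own 125 were higher (3.86%) and 267 lower (8.25%). The second near-equal set described below was flagged among higher members only. Its removal can lower the count of higher members alone, so higher and lower members were not held to the same rule. An adjusted p under 0.05 alone was reached by 3235 members, 2580 of them at less than 1.3-fold.

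**Figure D1:**
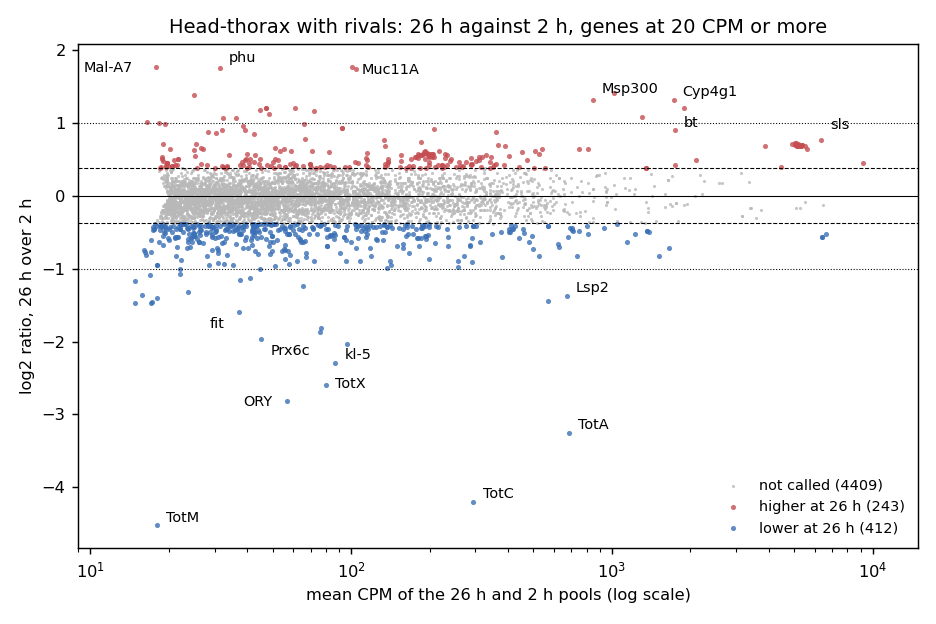
Each point is 1 of 5064 members; the x axis gives the mean CPM of both head-thorax pools on a log scale and the y axis the log2 ratio of 26 h over 2 h. Red points are the 243 members higher at 26 h, blue points the 412 lower and grey points those not called; dashed lines mark 1.3-fold and dotted lines 2-fold. TotM, TotC and TotA lie lowest, down to −4.52 for TotM, and the largest positive ratios are those of Mal-A7, Muc11A and phu at 1.77, 1.77 and 1.76.

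The Turandot peptides, small secreted proteins that circulate in the blood after heat, infection and other stress, had the lowest median of all lists, with all 4 members lower at 26 h by 2-fold or more and a median log2 ratio of −3.73, beside −0.03 over all members. TotA had 127 and 133 CPM at 26 h, against 1226 and 1251 CPM at 2 h. Both 26 h libraries lay far below both 2 h libraries, a 9.51-fold difference (log2 ratio −3.25 ± 0.03 SE, adjusted p = 6.6e-93). TotC had 30.0 and 30.6 CPM at 26 h, against 561 and 558 CPM at 2 h, with no overlap and a log2 ratio of −4.20 ± 0.03 (adjusted p = 7.5e-96). TotM had 1.41 and 1.57 CPM at 26 h, against 33.3 and 35.7 CPM at 2 h, and at −4.52 ± 0.10 its ratio was the furthest from 0 of any member. TotM reached 20 CPM at 2 h only, so it is a member through the pool where it is high. TotX, at 22.9 CPM at 26 h against 138 CPM at 2 h (−2.59), overlaps the glutamate receptor gene Grik (−2.04), and their reads cannot be told apart. Turandot genes are known targets of JAK/STAT signalling. Of 9 JAK/STAT pathway members 0 were called in either direction, at a median log2 ratio of −0.04 that was 0.00 under DESeq2 size factors. The transcription factor Stat92E stood at 272 CPM at 26 h against 279 CPM at 2 h (−0.04) and Socs36E, a negative regulator that the pathway itself induces, at 21.3 CPM at 26 h against 21.4 CPM at 2 h (−0.01).

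Genes of the blood cells were lower as well. Of 9 members on the hemocyte marker list 6 were lower and 0 higher, with a median log2 ratio of −0.60, and the remaining members, which include the hemocyte gene Hml (−0.33) and the engulfment receptor crq (−0.26), also lay below 0. The phagocytosis receptor NimC1 had 14.0 and 13.1 CPM at 26 h, against 33.4 and 34.5 CPM at 2 h. Its 26 h libraries were both below its 2 h libraries (−1.32 ± 0.06, adjusted p = 2.3e-34). Its relative eater, which binds bacteria, stood at 19.4 CPM at 26 h against 37.4 CPM at 2 h (−0.95). Both NimC1 and eater reached 20 CPM at 2 h only and are members through that pool. The collagen IV chains Col4a1 (99.5 CPM at 26 h against 184 CPM at 2 h, −0.89) and vkg (−0.60) and papilin, Ppn (−0.69), which blood cells and fat body lay down in basement membranes, were lower too. Pxn, the peroxidase that crosslinks collagen IV, was at −0.39, which was short of 1.3-fold under DESeq2 size factors (−0.35) and without split library 1 of 26 h (−0.35), and it shares reads with CG16986 and noncoding genes. Summed over all 10 measured markers the list stood at 658 and 666 CPM at 26 h, against 985 and 976 CPM at 2 h. Outside the list, and picked after their values were seen, the prophenoloxidases of the melanization response PPO2 (27.0 and 24.6 CPM at 26 h, against 56.2 and 56.5 CPM at 2 h, −1.13 ± 0.05) and PPO1 (−0.92, which overlaps Elk), the scavenger receptor Sr-CI (14.8 CPM at 26 h against 29.5 CPM at 2 h) and the collagen-binding protein SPARC (−0.69) were also lower at 26 h.

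Immune effectors followed the same direction in part. Of 14 antimicrobial and Bomanin peptides 6 were lower and 1 was higher, with a median of −0.35. BomS6, a Bomanin that is induced by the Toll pathway, had 122 and 119 CPM at 26 h, against 194 and 201 CPM at 2 h. The groups did not overlap (−0.71 ± 0.03, adjusted p = 9.3e-38). BomBc2 (−0.96, with at least 83.2% of its reads its own), the drosomycin-like Drsl4 (−0.74) and Drsl5 (−0.59), BaraA1 (−0.43) and BomT2 (−0.41) were the other lower members, and BomT3 was the higher one (60.1 CPM at 26 h against 42.1 CPM at 2 h, 0.51). BomT2 was short of 1.3-fold under DESeq2 size factors (−0.37) and without split library 2 of 26 h (−0.38). In the Toll and serpin list 3 of 20 were lower, the protease grass (−0.64) and the serpins Spn42Dd (−0.49) and nec (−0.43, overlapping pk), with a median of −0.30. In the immune deficiency list 1 of 9 was lower (11.1%, near the share of all members), the peptidoglycan-recognition protein PGRP-SB1 (−0.48), with a median of −0.16.

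The peroxiredoxins of the Prx6 group, enzymes that remove peroxides, formed another compact set. Prx6c had 18.2 and 18.8 CPM at 26 h, against 72.7 and 71.0 CPM at 2 h, well apart in all libraries (−1.96 ± 0.05, adjusted p = 4e-56). Prx6c is a member through the 2 h pool only, where it is high. Prx6b (34.0 CPM at 26 h against 119 CPM at 2 h, −1.81) and CG12896 (32.5 CPM at 26 h against 119 CPM at 2 h, −1.87) had nearly the same counts and may hold reads of one another. These 3 were the only called members among 12 peroxiredoxins and antioxidant enzymes, whose median was −0.15, and superoxide dismutase Sod1 (−0.19) and catalase Cat (−0.28) were short of 1.3-fold.

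Fat body products were lower in part, with 6 of 16 lower and 1 higher at a median of −0.34. The separate fat body marker list was split. Of its 4 members 2 were lower, Lsp2 and Adh, and 2 higher, apolpp and tobi, at a median of −0.09. Those with reads of their own were the 2 higher ones. Tsf1, the iron carrier transferrin of the blood, had 1246 and 1263 CPM at 26 h, against 2091 and 2045 CPM at 2 h. Both 26 h values were below both 2 h values (−0.72 ± 0.03, adjusted p = 1.5e-41). The storage protein Lsp2 had 370.2 and 379 CPM at 26 h, against 974 and 968 CPM at 2 h (−1.37), but its antisense partner asRNA:CR11538 (−1.44) overlaps it, and as little as 14.0% of reads may be those of Lsp2. The clotting protein fon (−0.72), the chitinase-like growth factors Idgf4 (−0.53) and Idgf6 (−0.53, overlapping Pgant9) and alcohol dehydrogenase Adh (5162 CPM at 26 h against 7631 CPM at 2 h, −0.56, counted together with Adhr) completed the lower members. The higher one was the lipoprotein precursor apolpp (5032 CPM at 26 h against 3849.5 CPM at 2 h, 0.39), a long transcript whose ratio was 0.34 to 0.37 and so short of 1.3-fold without split library 1 of either pool and under totals free of rRNA and mitochondrial genome genes, and 0.29 under raw totals. The satiety peptide gene fit, made in the fat body of the head, was named by the size of its ratio: it had 18.2 and 19.0 CPM at 26 h, against 56.2 and 55.3 CPM at 2 h (−1.59 ± 0.05), with at least 80.4% of reads its own. In the fasting and nutrient list 6 of 21 were lower and 2 higher, at a median of −0.02 that was 0.03 under DESeq2 size factors. Takeout, to, a circadian and feeding-related protein, was the lowest at −0.78, and the glucosidase tobi, a target of glucagon-like signalling, was the highest at 0.49.

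Enzymes of amino acid and one-carbon metabolism gave the most lower calls of the metabolic lists. Of 21 members 10 were lower and 0 higher, with a median of −0.36. Several of them act one after another in the breakdown of phenylalanine and tyrosine: Hn, which makes tyrosine, Tat, which starts its breakdown, and Hpd, hgo, GstZ2 and Faa, which carry the ring on to fumarate. Hpd, with at least 81.6% of its reads its own, had 375 and 381 CPM at 26 h, against 669.6 and 671 CPM at 2 h. The libraries of the 2 times did not overlap (−0.83 ± 0.03, adjusted p = 1e-48). Hn stood at 234 CPM at 26 h against 349 CPM at 2 h (−0.58), hgo at 42.6 CPM at 26 h against 71.9 CPM at 2 h (−0.76), GstZ2 at −0.55 and Faa at −0.58. Tat is outside the list and was looked up after these values were seen; it stood at 400.5 CPM at 26 h against 585 CPM at 2 h (−0.55). The other lower members were Oat (−0.71), Gnmt (−0.60), Shmt (−0.58), aay (−0.44, overlapping Atat) and Pdh (−0.47), a retinol dehydrogenase of the eye that is no enzyme of amino acids. Also picked after their values were seen, Inos, which makes inositol, had 172 and 173 CPM at 26 h, against 345 and 336 CPM at 2 h (−0.98 ± 0.03), Miox, which breaks inositol down, stood at 271 CPM at 26 h against 485 CPM at 2 h (−0.84), and regucalcin at −0.87.

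Energy metabolism moved less. Of 20 members for glycolysis and trehalose 4 were lower and 0 higher (median −0.19). Gapdh1, a glycolytic enzyme of muscle and most other tissues, had 887 and 908 CPM at 26 h, against 1412 and 1379 CPM at 2 h. Its 26 h libraries were the lower ones throughout (−0.64 ± 0.03, adjusted p = 2.2e-39). Tpi (−0.57), Pglym78 (−0.43) and the glycerophosphate oxidase Gpo1 (−0.40) were the other 3. In the citric acid cycle 3 of 19 were lower (15.8%), Idh (−0.44), citrate synthase kdn (−0.42) and Pdhb (−0.40), with a median of −0.14. Gpo1, kdn and Pdhb lost their calls under DESeq2 size factors (−0.35, −0.37 and −0.36), and Gpo1 and Pdhb also without split library 1 of 26 h (−0.37 and −0.36) or of 2 h (−0.38 and −0.37). Of 71 nuclear genes of oxidative phosphorylation 2 were lower (2.82%, below the share of all members), ATPsyngamma (352 CPM at 26 h against 526 CPM at 2 h, −0.58) and COX5A (−0.44). In that list 1 was higher, ND-AGGG (0.53), and the median was −0.10. Of 15 fatty acid oxidation members 0 were called (median −0.13). In lipid synthesis and storage 2 of 19 were higher, apolpp and the fatty acid synthase FASN2, and 1 was lower, acetyl-CoA synthetase AcCoAS (−0.45), at a median of 0.02 that was −0.08 under raw totals. Of 7 members for metal and iron handling 1 was lower, Tsf1 (median −0.09).

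Detoxification enzymes and lipid carriers leaned the same way. Among 38 cytochrome P450 members 9 were lower and 1 higher (median −0.25); Cyp6g1, known for insecticide resistance, had 335 and 343 CPM at 26 h, against 472 and 482 CPM at 2 h (−0.49 ± 0.03), and the higher one was Cyp4g1, described with the abdominal genes. Of 14 glutathione transferases 5 were lower (median −0.28), such as GstE3 (38.4 CPM at 26 h against 59.4 CPM at 2 h, −0.63) and GstE1 (−0.71). Of 11 UDP-glycosyltransferases 4 were lower (median −0.19), with Ugt35B1 at 78.3 CPM at 26 h against 121 CPM at 2 h (−0.63). Mgstl, another lower glutathione transferase at −0.41, was at −0.37 under DESeq2 size factors. In the takeout and juvenile hormone-binding family, secreted carriers of small lipids, 6 of 8 were lower and 0 higher (median −0.44). Its founder to had 125 and 121 CPM at 26 h, against 211 and 209.7 CPM at 2 h, and the times did not overlap (−0.78 ± 0.03, adjusted p = 1.1e-41). Jhbp14 (−0.55), CG7953 (−0.49, overlapping CenG1A), Jhbp3 (−0.44), Jhbp2 (−0.43) and Jhbp13 (−0.38) followed, and Jhbp13 fell short of 1.3-fold under DESeq2 size factors (−0.34) and without split library 2 of 2 h (−0.37).

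**Figure D2:**
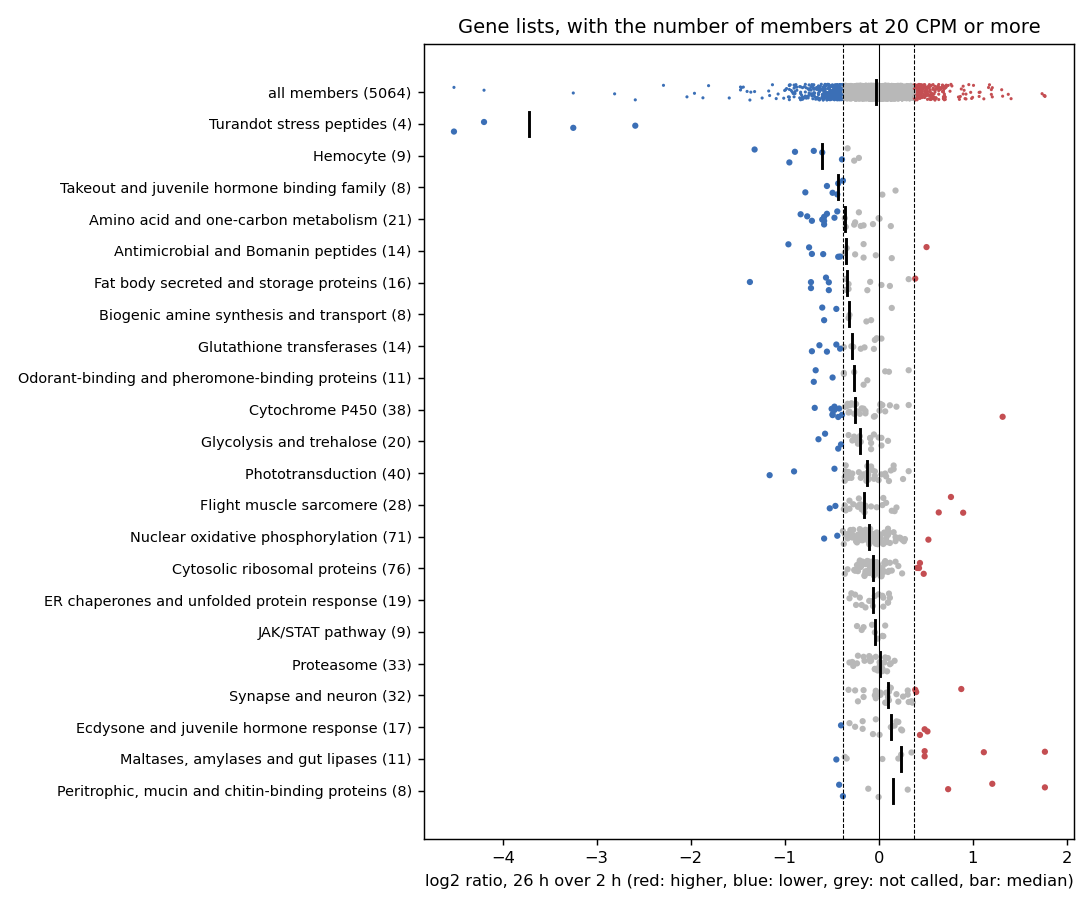
Each point is a member of the gene list named on the left, with the number of members in brackets; the x axis gives its log2 ratio of 26 h over 2 h, red for members higher at 26 h, blue for lower and grey for not called, with a black bar at the median and dashed lines at 1.3-fold. All 4 Turandot members lie left of −2.5, the hemocyte median is −0.60, and 0 proteasome and JAK/STAT members pass the dashed lines.

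Some genes of the chemical senses were lower. Of 11 odorant- and pheromone-binding proteins 3 were lower and 0 higher (median −0.26). Obp19d, a binding protein of antenna and mouthparts, had 176 and 183 CPM at 26 h, against 294 and 285 CPM at 2 h. Both 26 h libraries were below both 2 h libraries (−0.69 ± 0.03, adjusted p = 1.1e-39). Obp57a (−0.67) and Obp44a (−0.49) were the other 2. CheA75a, of a family expressed in taste organs, was picked after its values were seen and stood at 8.86 CPM at 26 h against 22.8 CPM at 2 h (−1.36). Of 4 members among the chemoreceptors 2 were higher, Ir85a (0.85), which overlaps Pif1A and Pif1B, and Ir40a (0.70), whose counts match those of other genes (median 0.45). In the phototransduction list 3 of 40 were lower (7.5%, beside 8.14% of all members) and 0 higher (median −0.12). The corneal lens protein retinin had 178 and 182 CPM at 26 h, against 337 and 335 CPM at 2 h (−0.90 ± 0.03), the carotenoid receptor ninaD 23.8 and 22.5 CPM at 26 h, against 50.8 and 52.6 CPM at 2 h (−1.16 ± 0.05), and Pdh was at −0.47. The rhodopsin ninaE, at 6189 CPM at 26 h against 6733 CPM at 2 h, was not called (−0.12), and of the 10 photoreceptor markers 0 were.

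In the nervous system most listed genes were not called, though the shares called in some lists lay above those of all members. Of 32 synapse and neuron members 3 were higher (9.38%, beside 4.8% of all members) and 0 lower (median 0.10). The higher ones were futsch, a microtubule protein of axons, the potassium channel Shab (0.40) and the acetylcholine transporter VAChT (0.39, which shares reads with ChAT). Shab and VAChT lost their calls under raw totals (0.30 each) and without split library 1 of 2 h (0.37 and 0.36), and VAChT also without split library 2 of 26 h (0.37). Of 14 neuropeptides and peptide hormones 3 were lower (21.4%, beside 8.14% of all members) and 0 higher, at a median of 0.02 that was −0.08 under raw totals. CCHa2, a peptide hormone that signals nutrient state, had 126 and 121 CPM at 26 h, against 192 and 196 CPM at 2 h, with no overlap (−0.66 ± 0.03). Nplp3 stood at 157 CPM at 26 h against 229 CPM at 2 h (−0.55), and the insulin-like peptide Ilp2 at 18.7 CPM at 26 h against 25.4 CPM at 2 h (−0.45), though Ilp2 overlaps CG32052 and was at −0.36 without split library 2 of 26 h. Of 8 members for biogenic amine synthesis and transport 3 were lower (37.5%) and 0 higher (median −0.31): ebony, e (−0.60), which couples dopamine and histamine to beta-alanine, Hn (−0.58) and tyrosine hydroxylase ple (69.3 CPM at 26 h against 94.4 CPM at 2 h, −0.45), the first enzyme of dopamine synthesis. Of 8 activity-regulated genes, 11 sex determination and courtship regulators, 5 neuron markers and 8 glia markers 0 were called in either direction. The courtship transcription factors fru (−0.01) and dsx (0.02) were among those not called. Of 12 clock members 3 were lower, to, cyc (14.5 CPM at 26 h against 20.1 CPM at 2 h, −0.47) and the receptor Pdfr (−0.38), and 1 was higher, Nf1 (0.38), at a median of 0.01 that was −0.08 under raw totals. Pdfr and Nf1 stood at the limit and lost their calls without split library 2 of 26 h (−0.34 and 0.37) or 1 of 2 h (−0.35 and 0.37), and Pdfr also with split library number as a replicate block (−0.38).

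Hormone and stress genes made up smaller groups. In the ecdysone and juvenile hormone list 3 of 17 were higher, the ecdysone-induced regulators Eip75B (331 CPM at 26 h against 244 CPM at 2 h, 0.44), ftz-f1 (0.52) and br (0.49, overlapping Mur2B), and 1 was lower, Jheh1 (−0.40). Eip75B was at 0.34 under raw totals, Jheh1 at −0.36 under DESeq2 size factors, and as little as 12.9% of the reads of ftz-f1 may be its own. Of 14 heat shock and co-chaperone members 4 were lower and 1 was higher (median −0.18). Hsp70Aa and Hsp70Ab, with identical counts, had 12.03 and 12.37 CPM at 26 h, against 23.51 and 23.86 CPM at 2 h (−0.95 ± 0.07). The small heat shock protein l(2)efl (−0.75) shares reads with St3, and Hsp22, the higher one (0.46, 0.36 under raw totals), with CG4456. Hsp68, at −0.43, was at −0.34 without split library 1 of 26 h, and Hsp83 at 832 CPM at 26 h against 870.2 CPM at 2 h was not called (−0.07).

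Several housekeeping groups lay close to all members. Of 33 proteasome, 15 vacuolar ATPase, 19 endoplasmic reticulum chaperone, 11 mitochondrial ribosomal protein and 7 ribosome biogenesis members 0 were called in either direction, with medians of 0.01, −0.09, −0.06, −0.02 and 0.02. Of these, the medians for the proteasome and ribosome biogenesis were −0.09 and −0.07 under raw totals, and that for mitochondrial ribosomal proteins was 0.03 under DESeq2 size factors. Of 34 translation factors and tRNA synthetases 1 was lower, eIF2beta (−0.39, and −0.35 under DESeq2 size factors and −0.36 and −0.37 without split library 1 of 26 h and of 2 h), at a median of −0.05, and of 18 members for vesicle traffic and cytoskeleton 1 was lower, the actin Act42A (−0.57), at a median of −0.16. Of 76 cytosolic ribosomal proteins 4 were higher and 0 lower (median −0.06): RpL38 (350.4 CPM at 26 h against 250.4 CPM at 2 h, 0.48), RpL41 (0.44), RpLP2 (0.43) and RpL39 (0.41). Under raw totals RpL41, RpLP2 and RpL39 were short of 1.3-fold (0.35, 0.33 and 0.31), and RpL39 also without split library 1 of 26 h (0.38). RpL41 overlaps NaCP60E, and RpL39 overlaps RpL12.

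The higher members held many long transcripts. Msp300, a giant nesprin that anchors nuclei and organelles in muscle, with a longest annotated transcript of 43121 nt, had 1212 and 1202 CPM at 26 h, against 483 and 491 CPM at 2 h. The 26 h libraries were both far above those at 2 h, a 2.48-fold difference (1.31 ± 0.03, adjusted p = 2.1e-63). The projectin gene bt, whose product links thick filaments to the Z disc, had 2301 and 2253 CPM at 26 h, against 1207 and 1230.0 CPM at 2 h (0.90 ± 0.03), and futsch 483 and 454 CPM at 26 h, against 261 and 248 CPM at 2 h (0.88 ± 0.03). The spectraplakin shot (915 CPM at 26 h against 583 CPM at 2 h, 0.65), Strn-Mlck (0.64) and the nuclear regulators pros (0.56), spen (0.54) and kis (0.54), of which shot and the last 3 were picked after their values were seen, were higher as well. Of 28 flight muscle sarcomere members 3 were higher, bt, Strn-Mlck and the titin-like sls (0.77), and 2 lower, arginine kinase Argk1 (1007 CPM at 26 h against 1440.5 CPM at 2 h, −0.52) and the actin Act79B (−0.46), with a median of −0.16. The level and ratio of sls were like those of a set of genes with near-equal counts, described below. Whether sls holds the same reads was not tested. Myosin heavy chain Mhc (0.14) and the flight muscle actin Act88F (0.19) were not called.

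Across members with reads of their own, the ratio went with the length of the longest annotated transcript. The median log2 ratio was −0.10 over 320 members of up to 1000 nt, −0.14 over 782 of 1000 to 2000 nt, −0.07 over 1091 of 2000 to 4000 nt, 0.07 over 815 of 4000 to 8000 nt and 0.21 over 213 of 8000 to 16000 nt. In the class of 1000 to 2000 nt 2.05% were higher and 16.1% lower, while from 8000 to 16000 nt 17.4% were higher and 1.41% lower. Above 16000 nt there were 17 members, of which 14 were higher and 0 lower (median 0.54). The lower members longer than 8000 nt were kl-5, Cubn (−1.17) and Ppn. Members under 100 CPM in both pools gave −0.14 at 1000 to 2000 nt and 0.21 at 8000 to 16000 nt, and members under 50 CPM in abdomen −0.15 and 0.22. Between the split libraries of 1 pool, none of the 6 classes over all members with reads of their own had a median beyond ±0.02. RNA integrity is not known from the labels, and its part in this relation was not tested. Members were also read against members of like length, with a smoothed curve chosen after the data were seen. Here the adjusted p remained that of the ratio before the curve, and the 4 pairings were not asked to lie on the same side. On this scale 248 members were higher and 256 lower, of which 167 and 237 were among the calls above. On that scale bt was at 0.40, Msp300 at 0.68, futsch at 0.44, shot at 0.15 and Strn-Mlck at 0.16, so shot and Strn-Mlck were short of 1.3-fold, whereas TotA was at −3.15, Col4a1 at −0.98, Hpd at −0.69 and Tsf1 at −0.65. The long genes sls (0.06), pros (0.11), spen (0.13) and kis (0.16) were short of it too. On that scale the Turandot list had 4 lower members, the hemocyte list 7, the fat body product list 7 and the amino acid list 8. Without the curve these lists had 4, 6, 6 and 10. The lower members were fewer in the takeout family (3, against 6 without the length curve), the cytochrome P450 list (2, against 9), the fasting list (2, against 6), glycolysis (2, against 4), the cuticle list (2, against 4), the digestive proteases (2, against 5), the antimicrobial list (4, against 6), the Toll list (1, against 3), the clock list (1, against 3) and the citric acid cycle (0, against 3). Further drops were in glutathione transferases (3, against 5), UDP-glycosyltransferases (3, against 4), heat shock members (3, against 4) and neuropeptides (2, against 3). The peritrophic list (0, against 2), the immune deficiency list (0, against 1) and long noncoding RNAs (15, against 22) dropped as well. The higher members of the sarcomere, synapse and ecdysone lists were then 1 in each, against 3 in each. Some lists gained calls on that scale. Higher members rose among long noncoding RNAs (19, against 10), digestive proteases (6, against 4), maltases (5, against 4) and translation factors (2, against 0). The cytochrome P450 list then had 2 higher (against 1) beside its 2 lower members. Phototransduction had 4 lower members, against 3, and 1 higher, against 0.

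**Figure D3:**
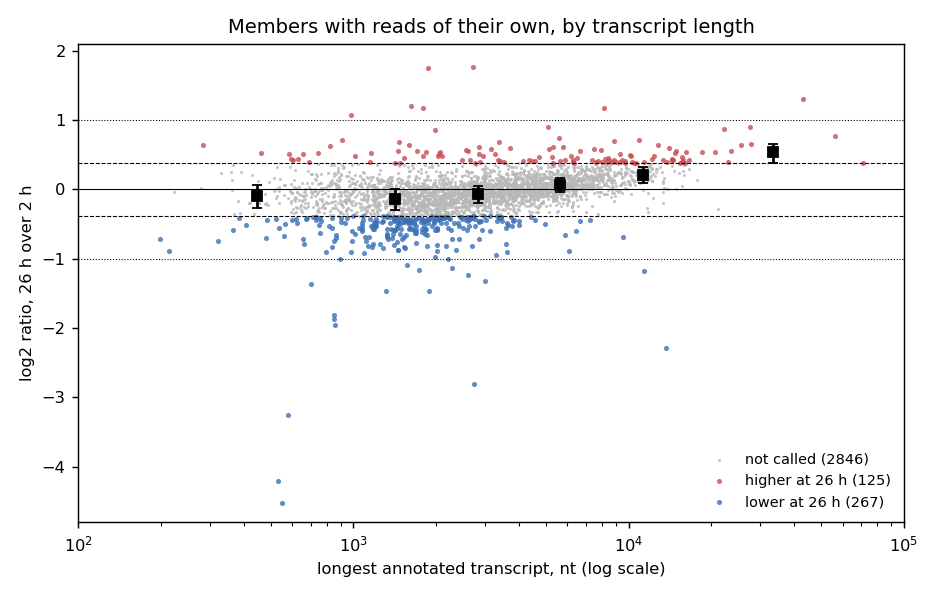
Each point is 1 of 3238 members with reads of their own; the x axis gives the longest annotated transcript in nt on a log scale and the y axis the log2 ratio of 26 h over 2 h, with colours as in the plot of ratio by level. Black squares are the medians of 6 length classes with bars for the quartiles, and they run from −0.14 at 1000 to 2000 nt to 0.54 above 16000 nt.

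Among the members with the largest positive ratios, many were far more abundant in abdomen. Of the 19 members higher by 2-fold or more, 9 (47.4%) had at least 5 times the CPM in abdomen at 2 h that they had in head-thorax at 26 h, and 13 (68.4%) at least 5 times that in head-thorax at 2 h. Against head-thorax at 26 h, 17 of the 243 higher members were this abundant in abdomen, as were 5 of the 412 lower (1.21%) and 64 of all members (1.26%). Against head-thorax at 2 h the counts were 23 higher (9.47%), 3 lower (0.728%) and 69 in all (1.36%). Each of these ratios shares a head-thorax value with the ratio of 26 h over 2 h, which pulls the 2 sets of counts in opposite directions, and they are given as a description. Cyp4g1, which makes cuticular hydrocarbons in the oenocytes of the abdominal wall, had 2473 and 2461 CPM at 26 h, against 989 and 987 CPM at 2 h. Both 26 h libraries were far above those at 2 h (1.32 ± 0.03, adjusted p = 2.2e-57), while the abdomen pool held 17876 CPM; the gene overlaps CG32816 (1.21). The maltase Mal-A7, a gut enzyme, had 27.9 and 27.3 CPM at 26 h, against 8.61 and 7.35 CPM at 2 h (1.77 ± 0.07), with 423 CPM in abdomen. The mucin Muc11A (148 and 163 CPM at 26 h, against 44.0 and 48.3 CPM at 2 h, 1.77 ± 0.04) shares its reads with lncRNA:CR43960 (1.74) and Ten-a. The fatty acid synthase FASN2 (62.1 CPM at 26 h against 27.4 CPM at 2 h, 1.18), the mucin-related Mur18B (1.21), Sgp (1.17), CG16904 (1.07) and the maltase Mal-A8 (1.12, overlapping mtt) were others, Mal-A8 by the 2 h value alone. Called or not, 49 of the 64 had a ratio of 26 h over 2 h above 0 (median 0.15), as did 60 of the 69 (median 0.23). Exceptions among the strongly higher were phu, with 48.5 and 48.2 CPM at 26 h, against 13.9 and 14.7 CPM at 2 h (1.76 ± 0.06) and 2.16 CPM in abdomen, CG14742 (1.38, overlapping Cog1), CG34423 (1.07), Msp300, and Ank2 (1.08) with CG44195 (1.41), which overlap.

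Markers of abdominal organs were set beside these genes. The 30 measured testis and sperm markers summed to 576 and 563 CPM at 26 h, against 459 and 464 CPM at 2 h and 11100 and 11320 CPM in the abdomen libraries, with 27 of 30 higher at 26 h. Most of the head-thorax sum came from bol and vas, whose head-thorax levels are near those in abdomen; the other 28 markers summed to 73.3 and 64.9 CPM at 26 h, against 41.3 and 34.9 CPM at 2 h. The 28 accessory gland markers summed to 67.3 and 62.4 CPM at 26 h, against 54.0 and 53.4 CPM at 2 h, with 25 higher at 26 h. Without Obp56g, which gave most of that sum, the other 27 stood at 22.7 and 16.2 CPM at 26 h, against 13.2 and 9.63 CPM at 2 h. The 7 Malpighian tubule markers stood at 190.8 and 190.5 CPM at 26 h, against 213.8 and 209.9 CPM at 2 h, but the 5 of them under 20 CPM in head-thorax, without Drip and Cyp6a8, stood at 26.1 and 27.5 CPM at 26 h, against 23.6 and 21.0 CPM at 2 h. The 8 markers of ejaculatory duct and bulb stood at 2057 and 2069 CPM at 26 h, against 2716 and 2688 CPM at 2 h, but the 4 under 20 CPM in head-thorax at 23.1 and 22.2 CPM at 26 h, against 16.2 and 13.8 CPM at 2 h. In that last list EbpIII (529 CPM at 26 h against 941 CPM at 2 h, −0.83) and the esterase Est-6 (−0.57), both abundant in head-thorax too, were lower. The 11 eggshell markers, which males should lack, summed to under 1 CPM in each head-thorax library, and 4 of them were at 0 in all. No marker of the other 4 lists was at 0 in all head-thorax libraries. Whether tissue from the abdomen took part in the higher values was not tested.

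**Figure D4:**
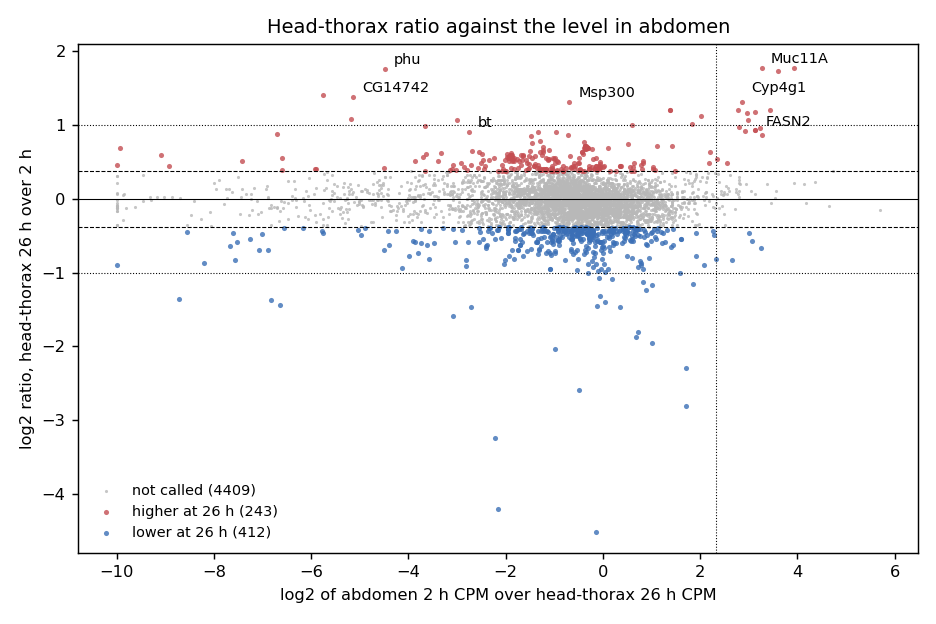
Each point is a member; the x axis gives the log2 of its CPM in abdomen at 2 h over head-thorax at 26 h, drawn at −10 where lower, and the y axis its log2 ratio of 26 h over 2 h in head-thorax, with colours as in the plot of ratio by level. Right of the vertical dotted line, at 5 times the head-thorax level, 17 members are higher at 26 h and 5 are lower; the axes share the 26 h value.

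Gut genes were called in both directions. Of 11 maltases, amylases and gut lipases 4 were higher, Mal-A7, Mal-A8, tobi and Mal-A2 (0.49), and 1 was lower, Lip2 (−0.45, with a median of 0.24 for the list). Of 8 peritrophic and mucin-like members 3 were higher, Muc11A, Mur18B and Muc68E (231 CPM at 26 h against 139 CPM at 2 h, 0.74), and 2 lower, Gasp (−0.42) and obst-E (−0.38), with a median of 0.16. Gasp was at −0.37 and obst-E at −0.34 under DESeq2 size factors, and obst-E was at −0.36 without split library 2 of 26 h and −0.35 without split library 1 of 2 h. Among 25 digestive proteases and lysozymes 4 were higher and 5 lower (median 0.12), and 9 of the 25, called or not, lay below 0. The higher ones were the lysozymes LysB, LysC, LysD and LysE (0.66 to 0.91), which all overlap mwh and have near-identical copies, so their reads are uncertain. The lower ones were serine proteases, led by Jon25Bii (30.3 and 29.6 CPM at 26 h, against 61.2 and 58.7 CPM at 2 h, −1.01 ± 0.05) and Jon25Bi (−0.65). Of 8 cuticle and chitin proteins 4 were lower, among them Cpr72Ec (39.5 CPM at 26 h against 72.0 CPM at 2 h, −0.87), and 1 was higher, Cpr73D (0.61), which overlaps Obp73a and Ogdh.

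Of the 7 Y-linked fertility members 3 were lower and 1 was higher, with a median of −0.20. ORY had 11.04 and 16.78 CPM at 26 h, against 89.97 and 109.4 CPM at 2 h (−2.81 ± 0.07) and kl-5, a dynein heavy chain of the sperm tail, had 25.8 and 32.7 CPM at 26 h, against 132 and 158 CPM at 2 h (−2.29 ± 0.05). The times did not overlap, although the split libraries of 1 pool also differed more for these genes than for most. In the abdomen pool ORY had 45.8 CPM and kl-5 96.3 CPM, both below head-thorax at 2 h, while most testis and sperm markers were far higher in abdomen. Whether the head-thorax counts are transcripts of these fertility genes was not tested. Ppr-Y stood at −0.41, −0.37 under DESeq2 size factors and −0.36 without split library 2 of 2 h, and WDY at 0.69. By chromosome, the shares of members higher and lower were 4.54% and 8.63% on 2L, 4.85% and 9.0% on 2R, 5.81% and 8.6% on 3L, 4.48% and 8.07% on 3R and 4.09% and 6.63% on X, while of 79 members on chromosome 4 there were 6 higher and 1 lower.

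Part of the higher calls rest on counts that are near equal in several genes. A set of 17 genes on 5 chromosome arms, such as Gprk2, mbl, rut, toc and Snap25, each had counts within 0.15 on the log2 scale of several others in every library, at 6080 to 6850 CPM at 26 h, against 3710 to 4410 CPM at 2 h, and all 17 were higher by 0.64 to 0.72. The abundant WDY (4789.9 CPM at 26 h against 2975 CPM at 2 h) and sls (7992 CPM at 26 h against 4674 CPM at 2 h) had like levels and ratios, and whether they hold the same reads was not tested. A second set, found among the higher members, held 19 genes on 5 arms, such as TrissinR, GluRIB and the cuticle gene Cpr73D, and stood at 208 to 262 CPM at 26 h, against 144 to 172 CPM at 2 h, with ratios of 0.51 to 0.61. In all, 118 of the 243 higher and 145 of the 412 lower members lacked reads of their own. The second set was flagged on the higher side only, which can add to the 118 alone. Of 117 long noncoding RNAs 10 were higher and 22 lower (median −0.10), and 16 of the 117 had reads of their own, with 3 higher and 2 lower; lncRNA:CR31781 was the most abundant of the higher ones (627 CPM at 26 h against 424 CPM at 2 h, 0.57).

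**Figure D5:**
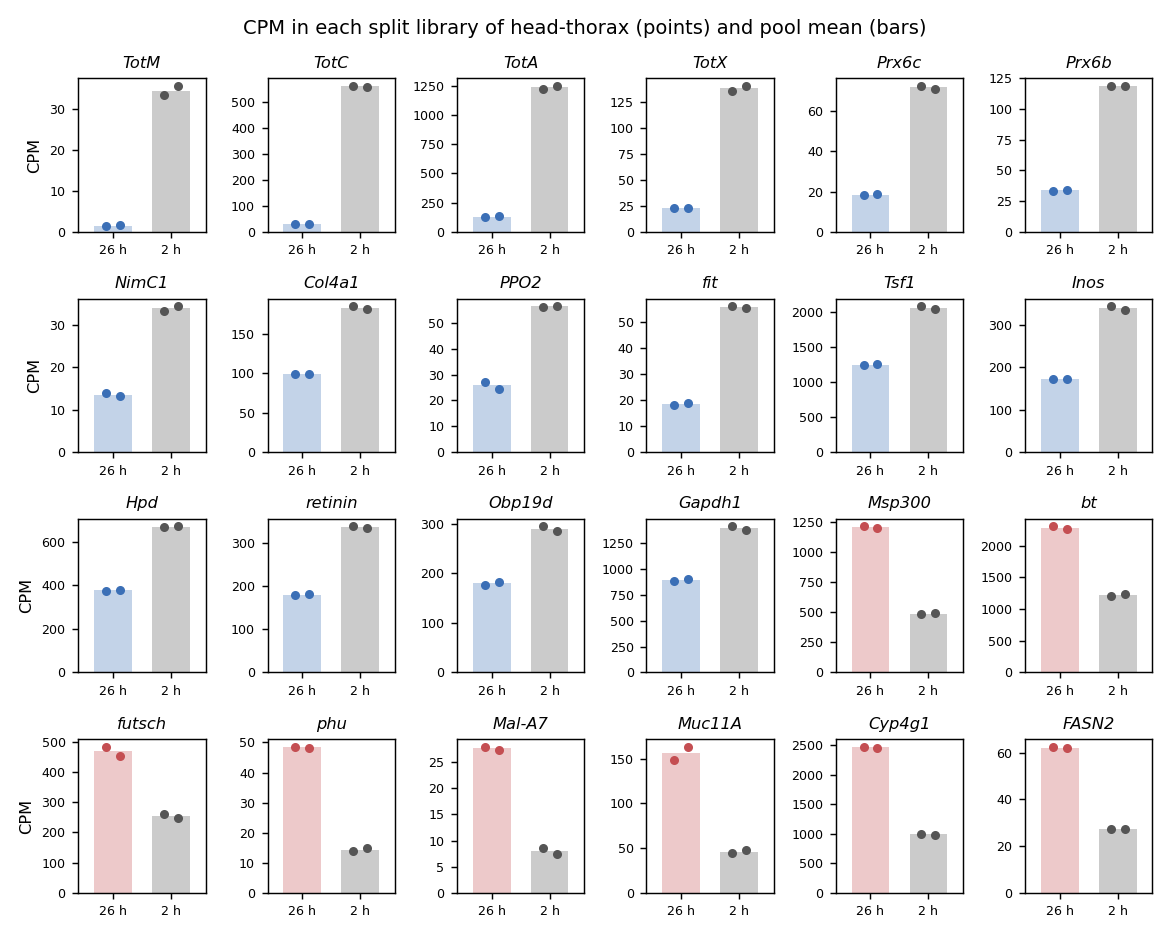
Each panel shows 1 gene, with the CPM of each split library as points and the pool mean as a bar, 26 h in colour on the left and 2 h in grey on the right; the y axis starts at 0 and differs between panels. In each of the 24 panels the points of one pool lie apart from those of the other, the first 16 genes lower at 26 h and the last 8 higher.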

How the data were processed

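Per the labels' protocols and the series' design text, RNA was extracted from pools of 40 body parts and sequenced as single-end 50 nt reads. The deposited files hold read counts per FlyBase gene, whole numbers without normalization that list a gene only with at least 1 count. No aligner, counter or build is given in the sources used here. Of 16942 genes 16735 matched a symbol in the Ensembl release 115 annotation of BDGP6.54, which also gave overlaps and transcript lengths. The other 207 are never named.

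Counts of all 6 libraries (3 groups) were fitted in 1 edgeR 4.0.16 quasi-likelihood model (R 4.3.3, TMM, filterByExpr, 3 residual degrees of freedom, technical coefficient of variation 1.63%), and 26 h was contrasted with 2 h. The steps were tested on simulated counts. Alternatives were DESeq2 1.42.0, other scalings, filters, limits and samples, and ratios relative to a lowess curve of transcript length (statsmodels 0.14.6, share 0.3); the length, own-read and unnamed-gene alternatives were added after the data were seen.

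Members and the 56 gene and marker lists were chosen with earlier results of these data known. The text names genes from the 15 largest ratios and 10 highest levels in each direction, the 4 most abundant members of a list and called members where 5 or fewer were called. Called members of lists with more calls, and genes said to be picked after their values were seen, were singled out later. Lists are described by counts and medians, with no set test. Promoter motifs are not analysed here.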

Additional observations from a re-analysis of the deposited data

How the results depend on the processing

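The main counts were 243 members higher and 412 lower at 1.3-fold, and 19 and 26 at 2-fold. Raw totals gave 141 higher and 725 lower, and DESeq2 size factors 316 and 327, with shifts of the median log2 ratio of −0.081 and 0.039 relative to TMM. With the fold tested inside the model 147 and 250 were left, all among the main calls. Genes that overlap no other gene gave 91 and 226 at 1.3-fold and 5 and 17 at 2-fold. Of the alternatives added after the data were seen, members with at least 90% of reads their own gave 125 and 267 at 1.3-fold and 7 higher at 2-fold, ratios relative to transcript length gave 256 lower, and counting the identifiers without a symbol gave 41 lower at 2-fold. A limit of 50 CPM gave 241 lower at 1.3-fold and 16 lower at 2-fold, 20 CPM in both pools 13 lower at 2-fold, and 10 CPM 37 higher at 2-fold. The cause of these moves was not tested beyond the smaller or larger sets that the limits themselves define. Leaving out 1 split library gave 239 to 250 higher, 411 to 434 lower, 18 to 21 higher at 2-fold and 25 to 29 lower. With split library number as a replicate block, 245 and 410 were called at 1.3-fold and 19 and 26 at 2-fold; same-numbered libraries correlated by −0.065 to 0.198 in their deviations, so the numbers do not pair them. DESeq2's Wald test gave 243 and 410. Of the genes followed singly, 48 lost their call with the fold tested inside the model and 63 relative to transcript length, and no called one changed direction under any of these settings. With 1 pool per time, no setting covers the variation between pools of flies.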

Other observations

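A further 106 identifiers without a symbol reached 20 CPM in a head-thorax pool and are not counted above, since it cannot be seen whether they are ribosomal RNA genes. Of these, 12 were higher and 22 lower at 26 h by 1.3-fold or more, with 1 higher and 15 lower by 2-fold or more, and their log2 ratios ran from −1.77 to 1.06.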
